A study of Mus musculus with 42 samples.

Results

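The comparison described here set the RNA recovered with phosphorylated ribosomes against the whole RNA of the same tissue, in mice that smelled no test odour. It used 10 of the 42 libraries of the study, a pulldown and an input library from each of 5 pools, numbered 1, 2, 3, 4 and 6 in the labels, and all 18991 of 44674 genes that passed a filter on low counts. Each pool held 4 main olfactory epithelia of male C57BL/6NCrl mice aged 8 to 12 weeks, which had been exposed for 1 h without an odour. The pulldown was made with an antibody against phosphorylated ribosomal protein S6, and the input was the lysate before the pulldown. The other 32 libraries came from 16 pools exposed to the odour of NCD, Bacon or HFD, and they are used below only to see where the same ratios recur.

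Ribosomal protein S6 is part of the small ribosomal subunit and is phosphorylated by S6 kinases downstream of mTOR, and by ERK-activated kinases, when a cell is stimulated by growth signals, nutrients or electrical activity. An antibody against the phosphorylated protein therefore recovers translating messenger RNA from the cells that carry the mark. The olfactory epithelium holds sensory neurons and their basal progenitors, supporting cells rich in detoxifying enzymes, glands, and the glia, vessels and connective tissue beneath. Each ratio sets a pulldown against the input of its own pool, so the number of cells of a type and their RNA enter both libraries. Since the samples were bulk tissue, fewer cells with phosphorylated S6 and less of a transcript on phosphorylated ribosomes within each cell cannot be told apart.

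The pulldown libraries held 25392812 to 30537597 counts and the inputs 31069093 to 36781553. The defining genes of sensory neurons (Omp, Gnal), supporting cells (Cyp2g1) and horizontal basal cells (Krt5) were all present in the inputs, as the labelled tissue requires, at 6061, 6042, 6171, 8165 and 6203 CPM for Omp in the 5 inputs. CPM are counts scaled to a common library size by TMM. A pair of libraries stood apart. The input of pool 4 held fewer counts on long transcripts and more on short ones than the other inputs (medians -0.44 and 0.43 on the log2 scale, against the median of the others). The pulldown of pool 6 held more of the RNA that the other pulldowns had lost, such as 7520.3 CPM of the mitochondrial ribosomal RNA mt-Rnr2 against 760.0 to 2633 CPM. Counts of genes in each list are therefore also given without pools 4 and 6.

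At an adjusted p under 0.001, 2392 genes were higher in the pulldown (12.6% of the genes tested) and 2343 were lower (12.3%). Among them 695 were higher and 926 lower by over 2-fold, and the median log2 ratio of all genes was -0.001. These percentages are the background for the counts over all pools in every list below. Leaving out pool 4 raised the counts to 3639 and 3314 genes, and leaving out any other pool reduced them to between 1297 and 1478, so a member that was not called is not thereby shown to be equal in both libraries. Without both pools 4 and 6, 3926 of the 18991 genes were called higher and 3611 lower. The list counts given without these pools are to be read against those larger numbers, not against the percentages above. A larger count there is not by itself a stronger result for the list. The log2 ratios of single pools had Spearman correlations of 0.66 to 0.80 with each other across genes.

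**Figure D1:**
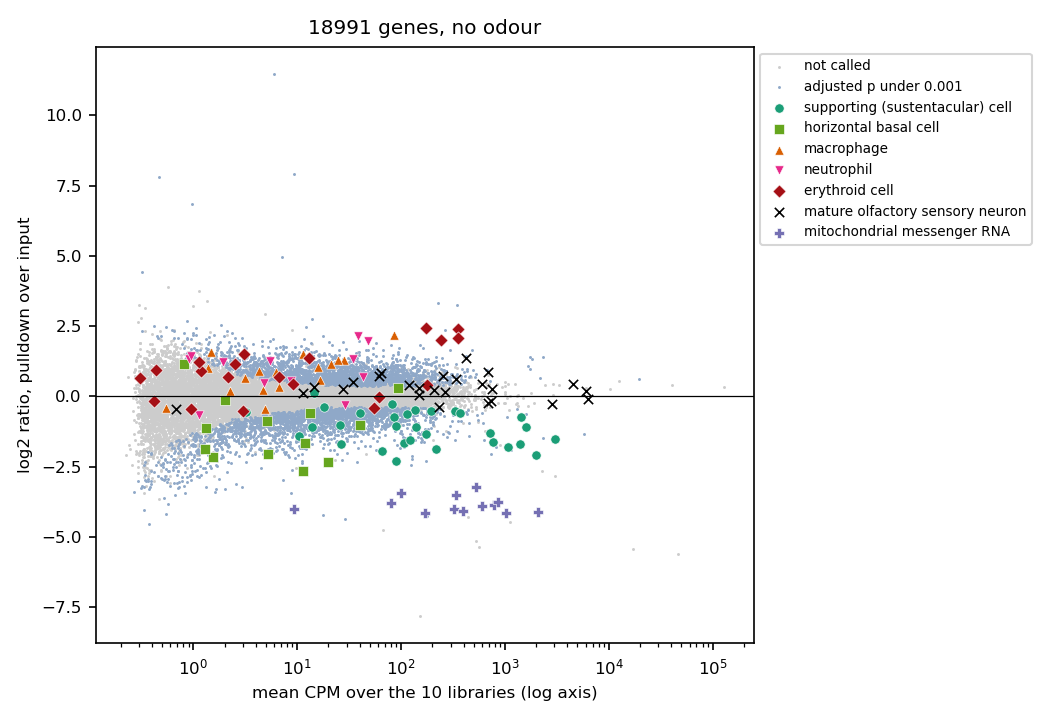
Log2 ratio of pulldown over input for the 18991 genes (vertical axis) against their mean CPM over the 10 libraries (log axis), with genes called at an adjusted p under 0.001 in blue and members of 7 lists as larger symbols. Supporting and horizontal basal cell genes lie mostly below 0, macrophage, neutrophil and haemoglobin genes above it, and the 13 mitochondrial messenger RNAs near -3.90.

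The ratio differed widely between classes of RNA. Mitochondrial messenger RNA is translated by the organelle's own ribosomes, which lack S6, and all 13 transcripts were lower in every pulldown than in every input, as were 20.7% of all genes tested. The 5 pulldowns held 150.1, 235, 137, 220.2 and 545 CPM of mt-Co1, a subunit of cytochrome oxidase, and their inputs 3873, 3467, 4196, 4417 and 3527 CPM. The log2 ratio of mt-Co1 was -4.12 ± 0.38 (SE), with an adjusted p of 0.000248. The list had a median of -3.90, with 10 of 13 called lower and 4 without pools 4 and 6. The 3 not called over all pools were mt-Co2 at -3.90, mt-Atp6 at -4.0 and mt-Atp8 at -4.17, whose groups did not overlap either.

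As a share of all counts, mitochondrial messenger RNA took 0.11% ± 0.0729 (SD, n = 5) of the pulldowns and 1.3% ± 0.127 (SD, n = 5) of the inputs. Mitochondrial ribosomal RNA took 0.425% ± 0.486 (SD, n = 5) and 11.7% ± 2.69 (SD, n = 5). Both were lower in the pulldown of all 5 pools (two-sided exact permutation test within pools, p = 0.0625 each, the smallest that 5 pools allow). Cytosolic ribosomal RNA and the genes that resemble it took 23.4% ± 6.38 (SD, n = 5) of the pulldowns and 16.4% ± 3.6 (SD, n = 5) of the inputs, and it was higher in the pulldown of all 5 pools (same exact permutation test, p = 0.0625).

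Several RNAs that work without being translated were also lower. The RNA of RNase MRP, Rmrp, had 2.49, 2.41, 2.07, 1.48 and 4.58 CPM in the pulldowns and 56.6, 52.4, 64.8, 69.7 and 30.2 CPM in the inputs, and the signal recognition particle RNA Rn7s1 had a log2 ratio of -4.25 ± 0.46 (SE). Both were called lower. Of 18 nuclear long noncoding RNAs tested, 8 were lower and 2 higher, Peg13 (1.11) and Jpx (0.59), with a median of -0.83 (3 and 9 called higher and lower without pools 4 and 6). Neat1, which builds nuclear paraspeckles, fell by 2.31 on the log2 scale, and 1700020I14Rik by 1.57. Malat1, of the nuclear speckles, was not called (log2 ratio -2.84 ± 0.49, adjusted p = 0.00565). Its level was 362, 835, 326, 561 and 2426 CPM in the pulldowns and 5575, 5583, 5176, 2198 and 7059 CPM in the inputs, so that the pulldown of pool 6 exceeded the input of pool 4. The list of host genes of small nucleolar RNAs, whose spliced transcripts reach the cytoplasm, had 3 of 14 members higher, Snhg3 (1.04), Snhg6 (0.64) and Snhg8 (0.55), and 5 and 1 higher and lower without pools 4 and 6. Its 1 lower member was Rmrp, which the annotation classes as a ribozyme and which is not a host gene.

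Across annotation classes, the 15897 protein-coding genes had a median log2 ratio of 0.01. Loci of the annotation class TEC, whose transcripts await experimental support, had -0.91 with 156 of 610 lower, and transcripts within introns on the same strand had -0.81 with 20 of 70 lower. Noncoding genes that share a promoter with a coding gene had 0.57, with 20 of 63 higher, and lincRNAs as a class had -0.03, close to that of coding genes.

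**Figure D2:**
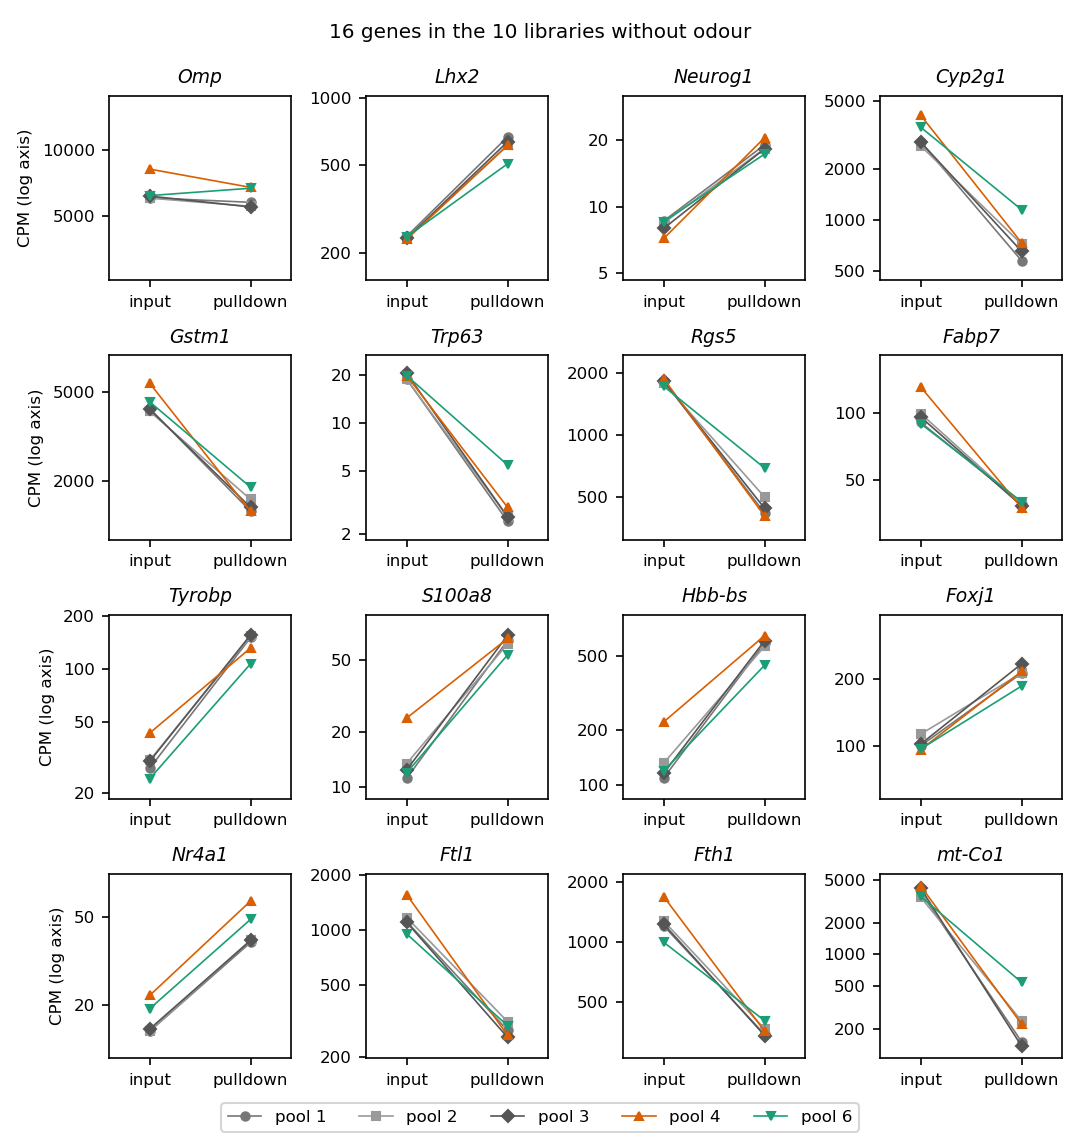
CPM (log axes) of 16 genes in the input and pulldown library of each pool, joined by a line for each of the 5 pools. Every line falls for Cyp2g1, Gstm1, Trp63, Rgs5, Fabp7, Ftl1, Fth1 and mt-Co1 and rises for Lhx2, Neurog1, Tyrobp, S100a8, Hbb-bs, Foxj1 and Nr4a1, whereas those of Omp go both ways.

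Genes of mature sensory neurons, the cells that detect odours, gave more higher than lower calls. Of 25 marker genes tested, 8 were higher in the pulldown and 0 lower by edgeR (4 at an unadjusted p under 0.05 and 1 by DESeq2). The median log2 ratio was 0.28, from 0.20 to 0.35 over pools, and without pools 4 and 6 the counts were 15 and 4. The transcription factor Lhx2, which neurons need for receptor expression, had 669.7, 615, 636, 613 and 507 CPM in the pulldowns and 238, 234, 233, 231 and 238 CPM in the inputs. Its log2 ratio was 1.37 ± 0.09 (SE, adjusted p = 1.27e-06), and all 5 pulldowns were above all 5 inputs. Components of the transduction cascade differed among themselves. The G protein subunit Gng13 had 0.86, adenylyl cyclase Adcy3 0.74 and the channel subunit Cnga2 0.61, all called higher. Omp, the classical marker of the mature neuron, had 5785, 5549, 5514, 6755 and 6696 CPM in the pulldowns and a log2 ratio of -0.10 ± 0.09 (SE, adjusted p = 0.363), so that both groups overlapped. The G protein alpha subunit Gnal had -0.28 ± 0.09 (SE, adjusted p = 0.02) and was not called.

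Lists of earlier stages of the lineage also had positive medians. Among 17 genes of immature neurons, 8 were higher and 0 lower by edgeR (1 at an unadjusted p under 0.05 and 0 by DESeq2). The median was 0.49, and 11 and 1 were called higher and lower without pools 4 and 6. The G protein subunit Gng8 had 116, 101, 111, 92.01 and 73.1 CPM in the pulldowns and 37.5, 44.2, 38.95, 61.1 and 34.4 CPM in the inputs, and the actin-binding protein Dbn1 had a log2 ratio of 0.80 ± 0.08 (SE). Dcx, a microtubule-associated protein of migrating neurons, had -0.11 ± 0.10 (SE) and was not called. In globose basal cells and neuronal precursors, 3 of 13 genes were higher, among them the proneural factor Neurog1 (1.19 ± 0.10, SE) and Hes6 (0.61). Neurog1 had 18.96, 18.2, 18.2, 20.4 and 17.2 CPM in the pulldowns and 8.61, 8.44, 7.97, 7.18 and 8.55 CPM in the inputs, with no overlap. The stem cell receptor Lgr5 was the only member called lower (-1.01). This list had a median of 0.49, from -0.01 to 0.50 over pools and 0.08 after the correction for GC content described below, and 6 and 1 genes were called higher and lower without pools 4 and 6.

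Of 20 genes of dividing cells, 8 were higher and 1 lower (10 and 2 without pools 4 and 6). The 4 subunits of the replicative helicase that were listed, Mcm3 (1.25), Mcm6 (1.18), Mcm2 (1.13) and Mcm5 (0.88), were all higher, whereas Tyms, which makes thymidylate, fell by 0.46. The mitotic marker Mki67 had -0.28 ± 0.11 (SE, adjusted p = 0.0428) and was not called.

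Genes of supporting and horizontal basal cells were on the other side. Supporting cells wrap the neurons and metabolise inhaled chemicals, and 27 of 31 of their genes were lower in the pulldown and 0 higher by edgeR (0 at an unadjusted p under 0.05 and 0 by DESeq2). The median log2 ratio was -1.09, and 0 and 26 were higher and lower without pools 4 and 6. Cyp2g1, an olfactory cytochrome P450, had 577, 723, 655, 735 and 1149.9 CPM in the pulldowns and 2872, 2727, 2870.4, 4119 and 3507 CPM in the inputs. This was a 4.26-fold lower level (log2 ratio -2.09 ± 0.13, SE, adjusted p = 1.16e-06). The glutathione transferase Gstm1 had 1458, 1648, 1518, 1455 and 1869.8 CPM and 4229, 4110.5, 4196, 5501 and 4538 CPM, with no overlap. The retinaldehyde dehydrogenase relative Aldh1a7 fell by 1.96 and the hypoxia-inducible factor Epas1 by 1.64. The 4 members not called were Ces1f (0.12), Fmo1 (-0.26), Sox2 (-0.37) and Cyp2a4 (-0.55). The summed level of the list was 7332 to 9359 CPM in the pulldowns and 19105 to 25102 CPM in the inputs.

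Horizontal basal cells, the quiescent stem cells of the epithelium, showed the same direction, with 10 of 13 genes lower and 0 higher by edgeR (1 at an unadjusted p under 0.05 and 0 by DESeq2). The median was -1.13, and 0 and 10 were higher and lower without pools 4 and 6. Trp63, the transcription factor that maintains them, had 2.41, 2.57, 2.57, 2.95 and 5.45 CPM in the pulldowns and 18.9, 18.9, 20.6, 19.9 and 19.9 CPM in the inputs, a 6.3-fold lower level (log2 ratio -2.66 ± 0.16, SE, adjusted p = 1.22e-06). The keratins Krt5 and Krt14 fell by 2.33 and 2.04. The receptor Egfr fell by 1.65, and Perp, of the desmosomes, by 1.02. Not called were Dst (0.28), Icam1 (-0.12) and Cxcl14 (1.14).

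Gland genes were mixed. Of 35 genes of Bowman's and nasal glands, 10 were lower and 1 higher, with a median of -0.61 (2 and 21 higher and lower without pools 4 and 6). Bpifb9b, a secreted lipid-binding protein, had 3257, 3629, 3459.7, 2557 and 2684 CPM in the pulldowns and 10439, 10050.2, 10944, 5807 and 4611 CPM in the inputs. Its levels in pools 4 and 6 were below those of pools 1, 2 and 3 in both kinds of library, and within every pool the pulldown was lower. The log2 ratio was -1.36 ± 0.13 (SE), and that of the water channel Aqp3 -1.61 ± 0.14 (SE). The mucin Muc5b had 3555, 3705, 3988, 2889 and 2781 CPM in the pulldowns and 1469, 1417, 1436, 674 and 1556 CPM in the inputs, and was the one member called higher (1.41 ± 0.15, SE). The secretoglobin Scgb1c1 had 0.27 ± 0.14 (SE, adjusted p = 0.113).

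Cells with motile cilia, which line the respiratory part of the nose, had 8 of 23 genes higher and 0 lower by edgeR (0 at an unadjusted p under 0.05 and 0 by DESeq2), with a median of 0.38 and 12 and 1 called higher and lower without pools 4 and 6. Foxj1, the master regulator of motile cilia, had 212, 213, 234, 216 and 186 CPM in the pulldowns and 100.1, 113, 102, 96.1 and 96.8 CPM in the inputs (log2 ratio 1.06 ± 0.08, SE). Deup1, which serves centriole amplification, had 1.69 ± 0.10 (SE) and the radial spoke protein Rsph1 1.11 ± 0.09 (SE). Members of the axonemal dyneins had lower ratios, 0.38 for Dnah5, 0.36 for Dnah9 and -0.40 for Dnah11, and were not called.

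The rarer epithelial cells gave few calls. Of 13 genes of tuft-like microvillous cells, Siglecf was higher (1.74) and Sh2d6 lower (-1.54), while the lineage factor Pou2f3 had 0.08 (2 and 3 higher and lower without pools 4 and 6). Among 13 ionocyte genes, the proton pump subunits Atp6v1g3 (1.21) and Atp6v0d2 (0.78) were higher and Atp6v1b1 (-1.24) and Atp6v1c2 (-1.21) lower. The ionocyte factor Foxi1 had -0.18 and was not called, and without pools 4 and 6 the counts of this list were 3 and 3. Sensory neurons of atypical kinds, which detect gases or other cues without a classical receptor, had 2 of 14 genes higher, Ms4a7 (0.98) and Emx2os (0.69), and 0 lower by edgeR (3 at an unadjusted p under 0.05 and 1 by DESeq2), against 3 and 0 without pools 4 and 6. Ms4a7 is also known from macrophages, and Emx2os is antisense to Emx2, a member of the mature neuron list. Neither call is therefore particular to atypical neurons. Of 15 genes of olfactory bulb neurons Slc17a6 was higher (0.47) and Grin2a lower (-1.38), and 2 and 2 were called without pools 4 and 6. Slc17a6 is also counted in the presynaptic list below, so its call is not particular to bulb neurons.

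Beneath the epithelium, the lists of glia, connective tissue and vessels had negative medians. Ensheathing glia, which bundle the axons of sensory neurons, had 7 of 17 genes lower and 0 higher by edgeR (1 at an unadjusted p under 0.05 and 0 by DESeq2), with a median of -0.78 and 1 and 7 called higher and lower without pools 4 and 6. The fatty acid-binding protein Fabp7 had 39.1, 38.7, 38.1, 37.4 and 39.9 CPM in the pulldowns and 90.7, 99.4, 95.8, 131 and 89.5 CPM in the inputs (log2 ratio -1.38 ± 0.10, SE). Fibroblast genes were lower in 11 of 20 cases (median -0.72, 0 and 14 higher and lower without pools 4 and 6), among them the proteoglycan Dcn (-1.47 ± 0.10, SE), and Col1a1 lay at the threshold (-0.48 ± 0.09, SE, adjusted p = 0.00102). All 20 fibroblast genes had a log2 ratio under 0.

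Pericytes and smooth muscle had 8 of 10 genes lower (median -0.95, 0 and 8 higher and lower without pools 4 and 6). Rgs5, a regulator of G protein signalling in pericytes, had 419.9, 502, 443, 407 and 693 CPM in the pulldowns and 1829, 1784, 1825, 1874 and 1725 CPM in the inputs, with pool 6 highest among the pulldowns and no overlap. Endothelial genes had a median of -0.65 and were lower in 4 of 18 cases (0 and 4 higher and lower without pools 4 and 6), Cldn5 (-0.89), Kdr (-0.92), Ptprb (-1.10) and Flt1 (-1.31). Pecam1, the surface protein often used to mark endothelium, had 0.36 ± 0.12 (SE, adjusted p = 0.025) and was not called, so the members did not all stand on one side.

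Many genes of myeloid cells were higher. Of 17 macrophage genes, 8 were higher and 0 lower by edgeR (1 at an unadjusted p under 0.05 and 0 by DESeq2), with a median of 0.91 and 10 and 0 called higher and lower without pools 4 and 6. Tyrobp, the signalling adaptor of myeloid receptors, had 150.4, 153, 156, 131 and 107 CPM in the pulldowns and 27.6, 30.5, 30.1, 43.5 and 24.1 CPM in the inputs. This was a 4.53-fold higher level (log2 ratio 2.18 ± 0.12, SE, adjusted p = 9.46e-07). The receptor Csf1r, on which macrophages depend, had 1.29 ± 0.09 (SE), while Mertk (-0.47) and Cd163 (-0.40), receptors of resident macrophages, were not called.

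Neutrophil genes were higher in 7 of 12 cases and lower in 0 by edgeR (2 at an unadjusted p under 0.05 and 0 by DESeq2), with a median of 1.24 and 8 and 1 called higher and lower without pools 4 and 6. The calprotectin subunits S100a8 and S100a9 had log2 ratios of 2.16 ± 0.14 (SE) and 1.95 ± 0.16 (SE). S100a8 had 64.2, 61.5, 68.5, 65.7 and 53.5 CPM in the pulldowns and 11.1, 13.4, 12.4, 23.9 and 11.9 CPM in the inputs. Of 11 T and NK cell genes, 0 were called higher (4 at an unadjusted p under 0.05 and 1 by DESeq2) and 0 lower (1 at an unadjusted p under 0.05 and 0 by DESeq2) by edgeR. Of 10 B and plasma cell genes Vpreb3 (0.82) and Igha (0.67) were higher and Ms4a1 (-1.52) and Cd79a (-2.01) lower. Without pools 4 and 6 the counts higher and lower were 1 and 0 for the former list and 4 and 1 for the latter. Cd79a and Ms4a1 had low counts, with means of 0.395 and 1.05 CPM over the 10 libraries, so their ratios rest on few reads. Hdc, the histamine-forming enzyme and the only mast cell gene tested of 8 listed, had 0.66 ± 0.08 (SE).

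Haemoglobin messenger RNA was among the transcripts with the largest ratios. Hba-a1, Hba-a2, Hbb-bs and Hbb-bt had log2 ratios of 2.45, 2.41, 2.08 and 1.99. The levels of Hbb-bs were 591, 568, 609, 648 and 448 CPM in the pulldowns and 109.7, 132, 116, 221 and 119.6 CPM in the inputs, with no overlap. The alpha and the beta genes are near-identical pairs, so the division of reads within a pair is uncertain. In the whole erythroid list, 7 of 20 genes were higher and Fech, the last enzyme of haem synthesis, was lower (-0.42), with a median of 0.80 (9 and 1 without pools 4 and 6). Slc4a1 (1.37), of the red cell membrane, and Hemgn (1.14), of the erythroid nucleus, were among the other higher members.

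Bone and cartilage genes, which mark turbinate bone in the dissection, went both ways. Acp5 (1.84) and Ctsk (1.64 ± 0.12, SE), enzymes of bone-resorbing osteoclasts, and the cartilage collagen Col2a1 (0.90) were higher. The 5 lower members were Phex (-1.87 ± 0.13, SE) and Dmp1 (-0.71), of osteocytes, the osteoblast factors Runx2 (-0.95) and Sp7 (-0.57), and the collagenase Mmp13 (-0.51 ± 0.09, SE). Of the 19 genes tested, 4 and 10 were higher and lower without pools 4 and 6.

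**Figure D3:**
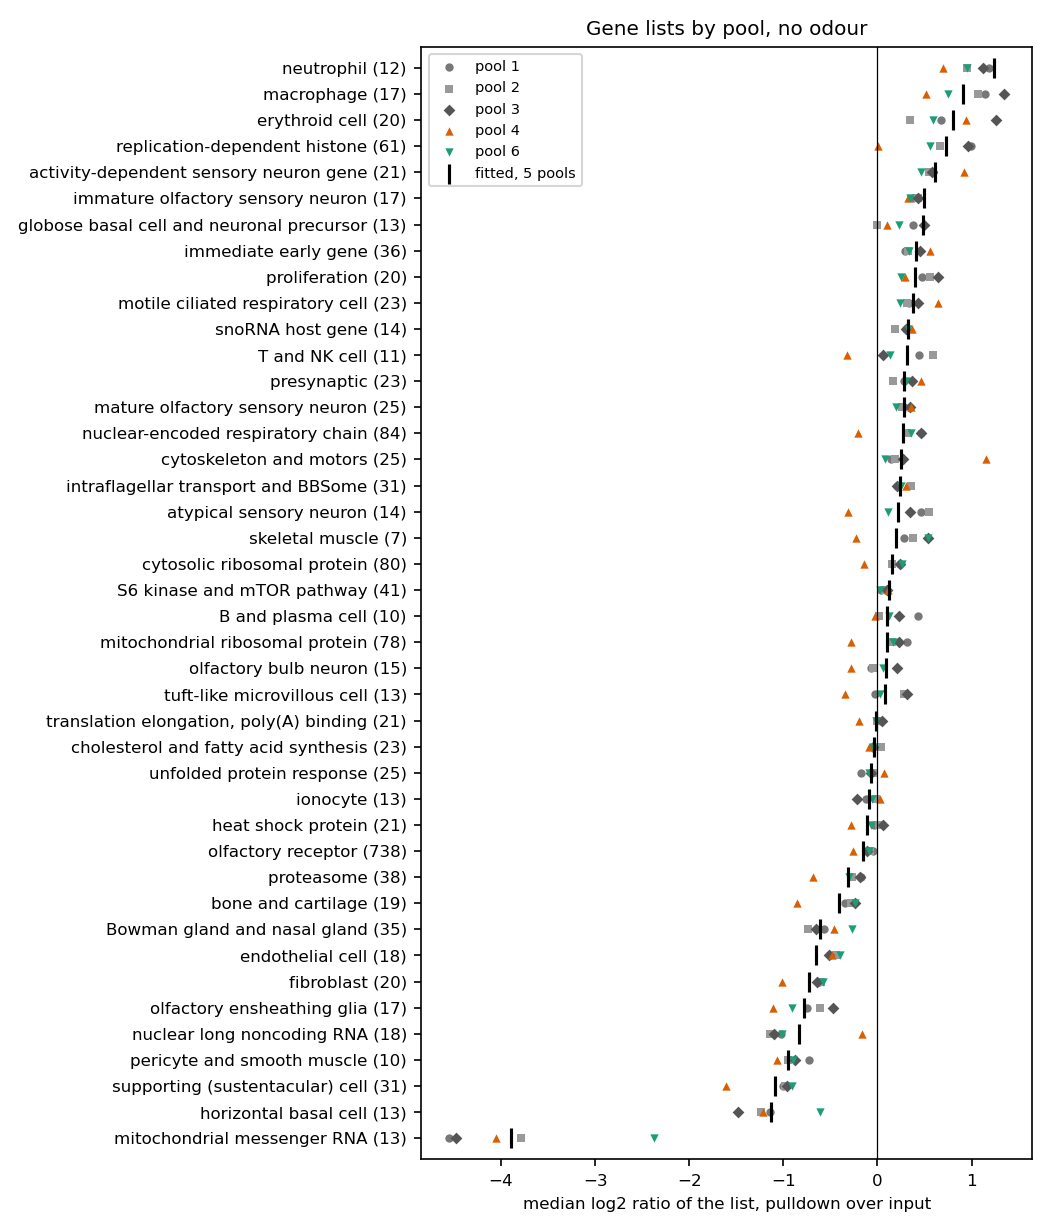
Median log2 ratio of pulldown over input of the genes tested in each of 42 lists (number in parentheses), as the fitted value over 5 pools (bar) and in each pool (symbols). Pool 4 lies apart from the other pools in lists of long or short transcripts, such as cytoskeleton and motors, and pool 6 lies nearest 0 for mitochondrial messenger RNA and horizontal basal cells.

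Genes known to respond to activity were often higher, in mice that had been given no odour. Of 21 genes known to follow the activity of sensory neurons, 12 were higher and 0 lower by edgeR (1 at an unadjusted p under 0.05 and 0 by DESeq2), with a median of 0.61 and 16 and 1 called higher and lower without pools 4 and 6. The potassium channel Kcnh3 had 83.5, 71.5, 87.6, 95.9 and 75.7 CPM in the pulldowns and 26.2, 25.8, 24.8, 20.6 and 29.3 CPM in the inputs (log2 ratio 1.71 ± 0.11, SE). The adhesion molecules Pcdh10 (1.68 ± 0.12, SE) and Kirrel2 (1.11 ± 0.08, SE), which take part in axon sorting, were higher, and S100a5, a calcium-binding protein that rises with odour input, had 0.65 ± 0.10 (SE). The levels of S100a5 were 2485, 2415, 2558, 3175 and 2613 CPM in the pulldowns and 1447, 1535, 1478, 2732 and 1476 CPM in the inputs, of which the input of pool 4 overlapped the pulldowns. Cadm1 (-0.30) was the one member with a negative ratio and was not called.

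Immediate early genes, transcription factors and regulators induced within minutes of a stimulus, had 11 of 36 higher and 4 lower (median 0.41, 14 and 4 without pools 4 and 6). Nr4a1 had 38.3, 39.2, 39.1, 58.9 and 48.7 CPM in the pulldowns and 15.2, 15.2, 15.6, 22.1 and 19.2 CPM in the inputs (log2 ratio 1.35 ± 0.07, SE), and its relative Nr4a3 had 1.52 ± 0.12 (SE). Fosb (1.80), Fos (1.15), Egr1 (0.89) and Arc (1.07) were also higher. The 4 lower members were Zfp36 (-0.79), Rgs2 (-0.83), Klf6 (-0.89) and Ier3 (-1.39). Dusp1 had 0.13 ± 0.07 (SE, adjusted p = 0.129).

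The messenger RNA of the antibody's target, Rps6, had 227, 212, 228, 225 and 219 CPM in the pulldowns and 198, 184, 213, 248 and 176 CPM in the inputs (log2 ratio 0.13 ± 0.08, SE, adjusted p = 0.192), and the groups overlapped. Of the S6 kinases, Rps6kb1 was not called (-0.15 ± 0.08, SE, adjusted p = 0.135) and Rps6kb2 was higher (0.54 ± 0.09, SE, adjusted p = 0.000304). The 41 genes of the S6 kinase and mTOR pathway had 8 higher, 7 lower and a median of 0.12 (15 and 11 without pools 4 and 6). The kinases Akt1 (0.82 ± 0.07, SE) and Akt2 (0.45), the GTPase Rheb (0.39) and the mTORC1 subunit Rptor (0.68) were higher, while Mtor itself (-0.78 ± 0.08, SE), the mTORC2 subunit Rictor (-0.53) and the inhibitor Deptor (-1.15) were lower.

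Calls among genes of the translation machinery depended on the pools used. Of 80 cytosolic ribosomal protein genes, 8 were higher and Rps2 was lower (-0.56), with a median of 0.16. Without pools 4 and 6 the counts were 41 and 3, and pool 4, whose input held more of the short transcripts, had a median of -0.14 against 0.15 to 0.26 in the others. In the pools exposed to an odour, 71 of these 80 genes were called higher and 0 lower. Of all genes, 35.4% were called higher and 33.9% lower there. Rpl41, which codes for the smallest of these proteins, had 2402, 2301, 2515, 2198 and 1725 CPM in the pulldowns and 979.7, 1111, 1025, 1495 and 785 CPM in the inputs. A list of other messenger RNAs with the 5′ terminal oligopyrimidine (TOP) start of ribosomal protein genes, mostly elongation, initiation and poly(A)-binding factors, had Eef1d (-0.43) and Eif3e (-0.49) lower among 21, with a median of -0.01. Its 1 higher member, Fau (0.55), itself codes for a ribosomal protein. Without pools 4 and 6 the counts were 3 and 8. Mitochondrial ribosomal proteins had 11 of 78 higher and 3 lower, Mrpl9 (-0.44), Mrpl50 (-0.51) and Mrpl47 (-0.67), but 30 and 7 without pools 4 and 6. With an odour, 59 of these 78 were called higher and 6 lower.

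Nuclear-encoded subunits of the respiratory chain had 21 of 84 higher and 0 lower by edgeR (12 at an unadjusted p under 0.05 and 0 by DESeq2), with a median of 0.27 and 53 and 4 called higher and lower without pools 4 and 6, in contrast to the 10 lower among the 13 subunits encoded by the mitochondrial genome. Ndufa1, of complex I, had 183, 183, 196, 186 and 133 CPM in the pulldowns and 74.6, 91.8, 75.7, 128 and 65.2 CPM in the inputs (log2 ratio 1.04 ± 0.11, SE). The catalytic ATP synthase subunits Atp5a1 (-0.07 ± 0.08, SE) and Atp5b (-0.25 ± 0.09, SE) were not called. Replication-dependent histone genes had 15 of 61 higher (median 0.72, 43 and 2 higher and lower without pools 4 and 6), such as Hist1h2bf (1.23 ± 0.10, SE), and Hist2h2be (-0.64 ± 0.09, SE) and Hist3h2a (-0.64) lower. Several of these histone genes are near-identical copies, and their single values are uncertain.

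Proteasome subunits, which form the main protease of the cytosol, had 7 of 38 lower and 0 higher by edgeR (2 at an unadjusted p under 0.05 and 0 by DESeq2), with a median of -0.31 and 1 and 15 higher and lower without pools 4 and 6, for example Psmd11 (-0.64 ± 0.08, SE). The small heat shock proteins Hspb1 (-1.29 ± 0.14, SE) and Hspb8 (-1.0 ± 0.10, SE) and the cochaperone Chordc1 (-0.53, but 0.02 after the correction for GC content described below) were the 3 lower genes of 21, and Hsf1 (0.42) the 1 higher, while the abundant chaperone Hsp90ab1 (0.04) was not called (5 and 6 higher and lower without pools 4 and 6). In the unfolded protein response, the factors Atf4 (0.60 ± 0.08, SE) and Ddit3 (0.52) and the secreted Manf (0.64) were higher, and Xbp1 (-0.77 ± 0.08, SE), Dnajb9 (-0.92 ± 0.10, SE), Sel1l (-0.58) and Dnajc3 (-0.41) lower, of 25 genes (8 and 8 without pools 4 and 6).

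Genes of cilium transport, used by the sensory cilia of the neurons, had 10 of 31 higher and 0 lower by edgeR (2 at an unadjusted p under 0.05 and 0 by DESeq2), with a median of 0.24 and 16 and 2 called higher and lower without pools 4 and 6, with Ift20 at 0.68 ± 0.08 (SE) and Ift27 at 0.70 ± 0.08 (SE). Presynaptic genes had 5 of 23 higher, Cacna1a (1.14), Sv2a (1.06 ± 0.10, SE), Cplx2 (0.68), Slc17a6 (0.47) and Syn1 (0.45), and Snap25, of the vesicle fusion complex, was not called (-0.08). Without pools 4 and 6, 11 and 2 presynaptic genes were higher and lower. Motor and cytoskeletal genes gave 2 higher, Kif1a (0.87 ± 0.11, SE) and Kif5a (0.69), and 1 lower, Map2 (-0.50 ± 0.09, SE), of 25, against 10 and 2 without pools 4 and 6, and the median of this list was 1.15 in pool 4 and at most 0.27 in the others. Among 23 genes of cholesterol and fatty acid synthesis, Mvk (0.75), Sqle (0.57) and Srebf2 (0.51) were among the 4 higher genes, and Insig1 (-0.46), Scd1 (-0.87) and Elovl6 (-1.09) were lower (5 and 6 higher and lower without pools 4 and 6).

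The largest ratios among genes with at least 10 CPM did not belong to 1 cell type. Akap12, a scaffold for protein kinase A, had 399, 412, 441, 447 and 383 CPM in the pulldowns and 45.4, 42.5, 40.2, 30.96 and 47.9 CPM in the inputs, a 10.1-fold higher level (log2 ratio 3.34 ± 0.12, SE, adjusted p = 2.51e-07). The chromatin protein Ep400 had 557, 583, 668, 697 and 606 CPM and 68.7, 70.9, 73.5, 42.5 and 77.9 CPM, with a log2 ratio of 3.24 ± 0.15 (SE). Card10 (2.76), Specc1l (2.35) and the postsynaptic scaffold Dlgap3 (1.97) followed, together with the olfactory receptors Olfr524 (2.48) and Olfr711 (2.16) and the myeloid gene Wfdc17 (2.04). At the other end, outside the mitochondrial and structural RNAs, stood Trp63 and Igf2, a fetal growth factor, which had 37.2, 42.5, 30.96, 32.03 and 53.6 CPM in the pulldowns and 205, 199, 203, 255 and 188 CPM in the inputs (log2 ratio -2.44 ± 0.15, SE).

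Ferritin messenger RNAs were chosen for display after their values were seen. Ferritin stores iron, and the messenger RNAs of both its chains carry in the 5′ UTR an iron-responsive element, a hairpin with a CAGTGN loop through which iron regulatory proteins can hold back translation. The letters of this hairpin were searched in the 5′ UTRs annotated in GENCODE M21, on the transcript strand, as a C, 5 bases, CAGTGN and 5 bases, with the base after CAGTG not a G and with the 5 bases on either side of the loop able to pair (G with U allowed). They stood in 22 of 15609 protein-coding genes tested, 0.141%. For ferritin and for other genes known for this element they read as follows, 5′ to 3′, with the loop in capitals.
Fth1: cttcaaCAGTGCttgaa
Ftl1: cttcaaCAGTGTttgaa
Slc40a1: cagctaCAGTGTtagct
Alas2: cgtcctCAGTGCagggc

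On GRCm38 these letters lie in the first annotated exon of each gene, at chr19:9982738-9982754 (plus strand) for Fth1, chr7:45459785-45459801 (minus strand) for Ftl1, chr1:45925471-45925487 (minus strand) for Slc40a1 and chrX:150547464-150547480 (plus strand) for Alas2. The light chain Ftl1 had 281, 314, 257, 264 and 298 CPM in the pulldowns and 1112, 1170.3, 1102, 1562 and 952 CPM in the inputs, a 4.12-fold lower level (log2 ratio -2.04 ± 0.12, SE, adjusted p = 1.14e-06). The heavy chain Fth1 had 344, 366, 339, 357 and 403 CPM and 1207, 1277, 1232, 1693 and 999 CPM (log2 ratio -1.81 ± 0.12, SE). All pulldowns of both genes were below all inputs. Other carriers of the letters had other ratios: the iron exporter Slc40a1 had 0.94 ± 0.14 (SE, adjusted p = 0.000198) and the haem synthesis enzyme Alas2 0.44 ± 0.10 (SE, adjusted p = 0.00427). Of all 22 genes with the letters, 7 were higher and 4 lower, among the latter both ferritins and Ftl1-ps1, and the median log2 ratio was 0.06. Ftl1-ps1 (-1.84) is a copy of Ftl1 with the same letters, so reads may be divided between them. The part of the element in these ratios was not tested.

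Olfactory receptors, of which each neuron expresses 1, took 0.267% ± 0.0347 (SD, n = 5) of the counts of the pulldowns and 0.218% ± 0.027 (SD, n = 5) of the inputs. Of 738 tested, 74 were higher (10.0%) and 37 lower (5.01%), against the background of 12.6% and 12.3%. The median was -0.15, and 79 and 38 were called higher and lower without pools 4 and 6. Olfr711 had 30.1, 29.5, 34.6, 26.6 and 23.6 CPM in the pulldowns and 7.40, 6.32, 7.18, 5.28 and 6.09 CPM in the inputs, and Olfr536, the receptor with the highest mean CPM, had a log2 ratio of 0.12 ± 0.07 (SE) and was not called. This family has low GC content (median 39.2%), and once a smooth of the levels on GC content was removed from each library the median became 0.22 with 112 higher and 7 lower, so the direction of this list depended on that choice.

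Composition of the transcript moved with the ratio in all protein-coding genes. Across 15884 of them, the log2 ratio had a Spearman correlation of 0.33 with GC content and -0.19 with 3′ UTR length, given as a description since genes share libraries and base composition. After the GC correction these correlations were -0.03 and -0.06, so most of the trend with 3′ UTR length went with GC content. The bins that follow are without that correction. In the lowest of 10 equal bins of GC content 3.27% were higher and 23.1% lower, and in the highest bin 29.6% and 4.03%. In the bin with the longest 3′ UTRs, 6.8% were higher and 25.5% lower. Coding length had a correlation of 0.01, and the bin of the shortest had 23.6% higher.

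**Figure D4:**
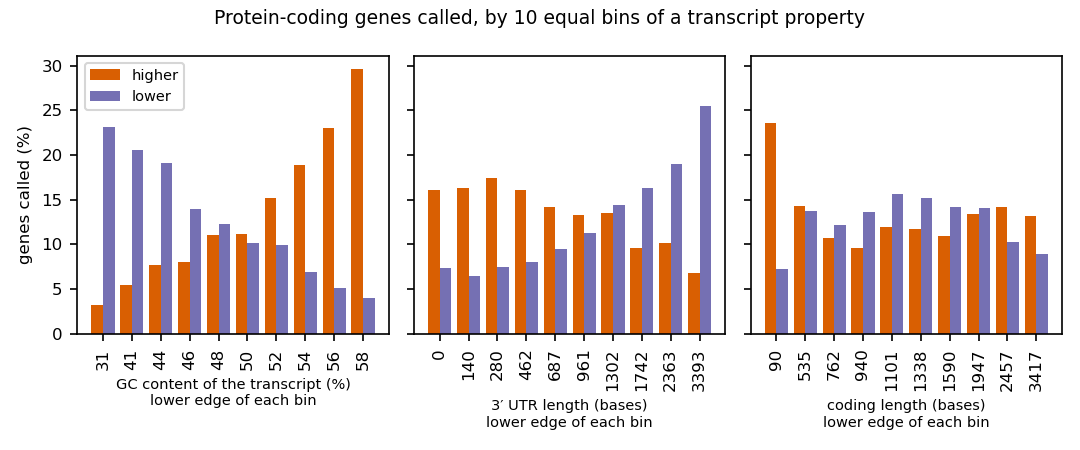
Share of protein-coding genes called higher (orange) or lower (purple) in the pulldown (vertical axis, % of genes in the bin), in 10 equal bins of GC content, 3′ UTR length and coding length. The share called higher rises with GC content from 3.27% to 29.6%, and the share called lower rises with 3′ UTR length to 25.5%. These calls are without the GC correction, after which the Spearman correlation with 3′ UTR length was -0.06 instead of -0.19.

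With GC content removed, 25 supporting cell genes, 10 horizontal basal cell genes, 14 fibroblast genes and 8 pericyte genes were lower, and 8 macrophage, 6 neutrophil, 7 erythroid and 10 activity-dependent genes were higher. Among lists with 4 or more genes called in a direction with or without this correction, counts moved by over 1.5 times for immature neurons (4 higher), the S6 kinase and mTOR pathway (3 higher), presynaptic genes (2 higher), ribosomal proteins (5 higher), cholesterol synthesis (1 higher) and heat shock proteins (5 lower), besides the receptors.

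The same ratio was taken in the 16 pools exposed to an odour, which shared no library with those above. There 35.4% of genes were higher and 33.9% lower at the same threshold, and 2319 of the 2392 genes higher without odour were higher again (96.9%, and 34.5% of those higher with an odour), as were 2251 of the 2343 lower (96.1% and 35.0%). Supporting cells had a median of -1.32, horizontal basal cells -1.72, macrophages 0.71, erythroid genes 1.13 and activity-dependent genes 0.52. Not every list kept its median. Dividing cells had 0.02 with an odour against 0.40 without (8 higher and 4 lower of 20 with an odour). Motile cilia had 0.15 against 0.38 (10 higher and 6 lower of 23). Motor and cytoskeletal genes had 0.03 against 0.25, and neutrophils 0.51 against 1.24. All 27 supporting cell genes called lower without odour were lower in these pools too.

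A test of the difference itself, any odour minus none, called 823 genes with a higher ratio (4.33%) and 466 with a lower one (2.45%). Respiratory chain genes had 38 of 84 higher and mitochondrial ribosomal proteins 23 of 78. Pool 4, whose input stood apart, had medians of -0.21 and -0.28 for these lists without odour. Without pools 4 and 6 the medians without odour were 0.42 and 0.24, against 0.94 and 0.58 with an odour. Gland genes had 16 of 35 higher and 4 lower, and their median turned from -0.61 to 0.55 (0.39 with NCD, 0.35 with Bacon and 0.58 with HFD odour). Obp1a, an odorant-binding protein, had a log2 ratio of -1.55 without odour and 1.38 with an odour, a difference of 2.90 (adjusted p = 3.5e-07) in a joint fit. Without odour it had 76.9, 86.3, 86.7, 143 and 122 CPM in the pulldowns and 351, 349, 387, 301 and 148 CPM in the inputs, and that ratio was not called (adjusted p = 0.0102). For Bpifb9b, -1.36 and 0.55 differed by 1.90 (adjusted p = 2.43e-12). S100a5 had 0.65 and 1.65, a difference of 0.98 (adjusted p = 2.92e-05), and Omp -0.10 and 0.42, a difference of 0.51 (adjusted p = 9.52e-05). Without odour, S100a5 had a log2 ratio of 0.22 in pool 4 and 0.65 to 0.82 in the other pools. The differences between odour and no odour were not tested without pool 4. The labels name no day or batch of the pools, so odour and such a difference between the sets of pools cannot be told apart.

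**Figure D5:**
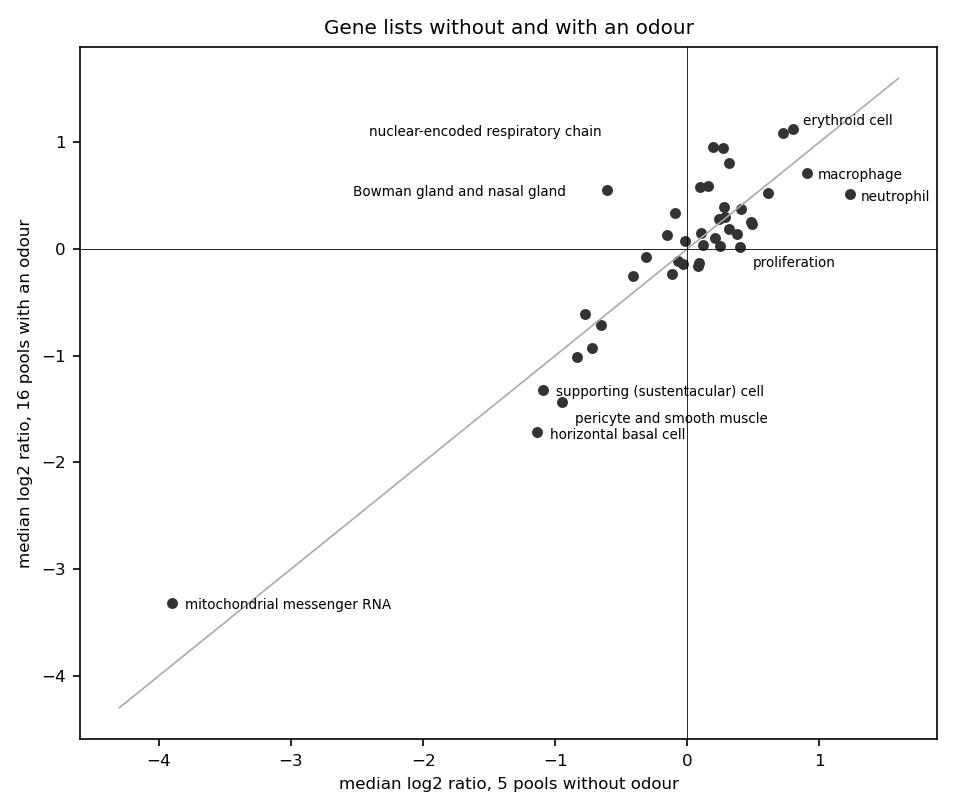
Median log2 ratio of pulldown over input of each list in the 16 pools with an odour (vertical axis) against the 5 pools without odour (horizontal axis), with the line of equal values in grey. Supporting cells, horizontal basal cells and macrophages keep their side of 0, gland genes lie at -0.61 and 0.55, on opposite sides of it, and respiratory chain genes at 0.27 and 0.94. Without pools 4 and 6 the value of respiratory chain genes without odour was 0.42.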

How the data were processed

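RNA-seq libraries of phospho-S6 pulldowns and of their inputs from pooled olfactory epithelia were analysed. Per the labels and the study's methods, reads were quantified with Salmon against GRCm38, and DESeq2 1.26 served the study's own tests. The deposited values are estimated counts per gene, which need not be whole. Genes were named here by GENCODE M21. The deposited gene table was rounded to whole counts here. Of its 44674 genes, 556 had no name in GENCODE M21 and are not named. The total per library was 25392812 to 36781553 counts. Depth and the number of pools both limit the precision. No column of the table was left unused (0 columns).

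Low genes were removed with filterByExpr at 10 counts, libraries were scaled by TMM, and the rest was fitted with edgeR 4.0.16 (R 4.3.3, limma 3.58.1), a robust quasi-likelihood model with the pool as a block, since the study's methods set each pulldown against its own input. P-values were adjusted by Benjamini and Hochberg over all 18991 genes, and a gene was called at an adjusted p under 0.001. SE was derived from the log2 ratio and the quasi-likelihood F. Pulldown and input of the same pool deviated together weakly (correlations 0.026 to 0.343, median 0.098, against 0.017 with the inputs of other pools), and 2 of 5 pulldowns correlated best with their own input. No 2 libraries of a group were alike within sampling noise (chi-square per degree of freedom at least 5.83 over 20 pairs). On simulated counts the fit recovered 91 of 100 genes changed 2-fold and 89 of 100 changed 4-fold, with 0 wrong calls. The simulated counts followed the fitted trend of spread and held no library that stood apart, so they do not give the error rate of the real data. Whether replicate pools differ by day or preparation is not given in the sources used here.

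The comparison, its members and the gene lists were chosen with earlier results of these data known. Named are the 15 largest and 15 smallest ratios among called genes of at least 10 CPM that moved the same way in all 5 pools, in every list the 2 members with the highest CPM and the 2 with the smallest p, the antibody's target and its kinases, and the members of any count of 5 or fewer. Further genes were chosen after their values were seen: those given beside a list as members not called or as examples, the ferritins and other carriers of the iron-responsive element, Obp1a and the low-count genes. Alternatives were no pool block, other size factors, DESeq2 1.42.0, other filters, a threshold of 0.05, all 42 libraries in 1 fit, each pool left out, and, added after seeing the data, a GC correction and pools 4 and 6 left out. A few genes are not reported here. Sequences were read from the GENCODE M21 transcripts, placed on GRCm38 by its annotation.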

Additional observations from a re-analysis of the deposited data

Results flagged for a closer look

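Of 240 log2 ratios tested over the 5 pools, 46 had 1 pool far from the other 4 by Dixon's test (chance gives about 1 in 20), and in 34 of these it was pool 4, whose input stood apart. Among list medians, pool 4 lay apart for supporting cells -1.61, fibroblasts -1.01, bone and cartilage -0.85, nuclear long noncoding RNAs -0.16, TOP messenger RNAs other than ribosomal proteins -0.20 and activity-dependent genes 0.91. It lay apart also for cytoskeletal and motor genes 1.15, cytosolic ribosomal proteins -0.14, mitochondrial ribosomal proteins -0.28, the respiratory chain -0.21 and the proteasome -0.68. The other pools had values on one side of these. For the vomeronasal receptors pool 2 lay apart at -0.25.

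Among single genes, the log2 ratio of pool 4 lay far above those of the other pools for Arc 2.0, Cplx2 1.27, Dlgap3 2.92, Dnah11 0.99, Dnah5 1.16, Dnah9 1.14 and Dst 1.76. Others of this kind were Ep400 4.03, Pcdh10 2.31, Peg13 1.77, Rptor 1.17, Slc17a6 0.70 and Specc1l 2.94. It lay far below for Chordc1 -0.91, Dcn -1.97, Fau 0.095, Hspb1 -2.02, Mmp13 -0.90, Rps2 -1.02 and S100a5 0.22. Lower values also stood at Scgb1c1 -0.43, Wfdc17 1.19 and Zfp36 -1.09. In pool 6, whose pulldown stood apart, the ratio lay apart for Aldh1a7 -1.51, Dbn1 0.59, Gm10800 3.83, Lhx2 1.09, Mrpl9 -0.24 and Trp63 -1.86. The remaining ones were Deptor in pool 1 at -1.74, Pecam1 in pool 1 at 0.76, Ptprb in pool 1 at -1.66, Sh2d6 in pool 3 at -1.02 and Slc4a1 in pool 1 at 1.58. Which part of these values comes from the library and which from the tissue was not tested.

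For 28 of 195 genes named, the log2 ratio differed between the 16 pools with an odour and the 5 without. They were called by edgeR's test of the difference itself at an adjusted p under 0.001. Over all genes tested, that test called 4.33% with a higher ratio and 2.45% with a lower one. Many of the genes named were picked for their ratios or after their values were seen. The count of 28 therefore gives no measure of how common such differences are. The difference, odour minus none, was positive for Atf4 0.65, Bpifb9b 1.90, Ddit3 0.46, Dnajb9 0.43, Eif3e 0.35, Fabp7 0.72, Gng13 1.04 and Hist2h2be 0.39. It was likewise positive for Hist3h2a 0.45, Ift20 0.42, Manf 0.49, Mrpl50 0.48, Obp1a 2.90, Omp 0.51, Perp 0.65 and Rheb 0.45. It was likewise positive for S100a5 0.98, Snhg3 1.28, Snhg6 0.72 and Xbp1 0.58. It was negative for Akap12 -0.83, Arc -0.95, Csf1r -0.51, Dcx -0.43, Kif1a -0.53, Mcm3 -0.64, Mcm6 -0.58 and Specc1l -0.62. Day and batch of the pools are not given in the labels, so they and the odour cannot be told apart.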

How the results depend on the processing

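The counts of 2392 genes higher and 2343 lower moved by over 1.5 times when all 42 libraries shared 1 estimate of the spread (4058 and 3549), at an adjusted p under 0.05 (5343 and 5371) and without pools 4 and 6 (3926 and 3611, an alternative chosen after seeing the data). Leaving out 1 pool gave 1307 to 3639 higher and 1297 to 3314 lower genes. The highest counts were those without pool 4, and without any other pool they were at most 1439 and 1478. DESeq2 called 3182 and 3005. Under the other normalizations and filters the counts ranged from 2185 to 3370 higher and 2324 to 3043 lower, and the split of calls changed by under 10 percentage points. Without the block for the pool the counts were 2517 and 2559, and the pairing changed no count of all genes by over 1.5 times.

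A change of sign was seen with the GC correction, also chosen after seeing the data, for the medians of olfactory receptors (0.22, and 0.018 with genes at 1 CPM or more in 5 libraries) and ionocytes (0.054, and -0.13 to 0.013 with 1 pool left out), and for Chordc1 (0.018), Dcx (0.22), Dusp1 (-0.034), Rps6kb1 (0.24) and Snap25 (0.11). Of these genes only Chordc1 had been called. Dst ranged from -0.063 without pool 4 to 0.41 without pool 6, and was -0.018 without pools 4 and 6. The median of the S6 kinase and mTOR pathway with Bacon odour alone was -0.000374. For the genes named, 3141 of the other values kept direction and side of the threshold, 274 lost a call and 78 gained one. The cause was not tested. Calls at low counts are limited by depth, and 5 pools set the precision of every ratio.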

Other observations

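A few genes with almost no count in the inputs lay outside the lists and under the level at which genes were named, and were chosen after their values were seen. Gm10800 had 324.5, 271.1, 444.8, 577.8 and 30.6 estimated counts in the pulldowns of pools 1, 2, 3, 4 and 6 and 0 in all 5 inputs, at least 606-fold higher against a floor of 3 counts over the 5 inputs together. Gm26870 had 561.9, 345.6, 726.5, 879.8 and 50.8 counts in the pulldowns and 0, 1, 5, 0 and 5 in the inputs, and Gm10718 had 59.4, 41, 70.9, 85.9 and 10 and 0, 0, 0, 2 and 0. For these 3 genes the pulldown of pool 6 had the fewest counts. Gm10718 (chr9:3023547-3025218) lies within the span of Gm26870 (chr9:3000282-3038313), on the other strand. Whether the reads assigned to these 3 genes arose from these loci was not tested. The floor covers counting error only. In the pools exposed to an odour, Gm10800 and Gm26870 were called higher as well (fitted log2 ratios 11.01 and 7.97, the first of which depends on the prior count).

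The parvalbumin gene Pvalb divided the pools. It had 5.53, 5.13, 5.52, 0.17 and 0.25 CPM in the pulldowns and 2.10, 1.42, 1.58, 0.07 and 0.09 CPM in the inputs, so that pools 4 and 6 were near 0 in both libraries while pools 1, 2 and 3 were not. The log2 ratio was 1.64 ± 0.20 (SE, adjusted p = 4.01e-05). Scd1, a fatty acid desaturase, had the opposite order, with 30.6, 30.6, 28.2, 61.9 and 71.5 CPM in the pulldowns and 59.5, 61.3, 61.3, 96.3 and 111 CPM in the inputs. In both genes the levels of pools 4 and 6 differed from those of pools 1, 2 and 3 in the same direction in pulldown and input.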
